A study of Mus musculus with 146 samples.

Results

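The genes described here are 7 genes of DNA replication measured in the stage table of the series: Mcm2, Mcm3, Mcm5, Mcm6 and Mcm7, which encode subunits of the minichromosome maintenance (MCM) helicase, Rrm2, which encodes the small subunit of ribonucleotide reductase, and Tk1, which encodes thymidine kinase. They were taken by name, and all 7 were found among the 716 genes of that table. The table follows relapsing-remitting EAE (experimental autoimmune encephalomyelitis), a model of multiple sclerosis, through 6 stages in the brain of F1 mice of a C57BL/6 by SJL cross. All mice carried Cx3cr1-CreER:RPL22-HA, so that an HA-tagged ribosomal protein is switched on in cells that use the Cx3cr1 promoter, mainly microglia but also border macrophages and some blood-derived cells. All mice had also received 5 mg of tamoxifen by gavage 4 times at 4 to 6 weeks of age. Tagged ribosomes were precipitated from brain homogenate with an anti-HA antibody, IgG precipitations gave the background, and input libraries hold RNA of the homogenate. Each of these 3 fractions has 6 libraries from non-immunized mice, 4 from initiation, 6 from max, 8 from remission, 5 from cure and 4 from relapse, the stage names being those of the labels.

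Before a cell divides it copies its genome once. The MCM proteins are loaded onto origins of replication as a hexamer in G1 phase and unwind the DNA ahead of the polymerases in S phase, with Mcm2, Mcm3, Mcm5, Mcm6 and Mcm7 each contributing a different subunit. Ribonucleotide reductase makes deoxyribonucleotides from ribonucleotides, with a small subunit that is made for S phase, while thymidine kinase salvages thymidine. Transcripts of these genes are low in resting cells and rise as cells enter S phase, in part through E2F transcription factors, which makes them common markers of proliferation. Adult microglia divide slowly in the healthy brain and are known to proliferate in EAE.

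In build GRCm38 with GENCODE M21 annotation, the genes are Mcm2 at chr6:88883474-88898780, Mcm3 at chr1:20802968-20820312, Mcm5 at chr8:75109569-75128439, Mcm6 at chr1:128331590-128359664, Mcm7 at chr5:138164583-138172422, Rrm2 at chr12:24708241-24714146 and Tk1 at chr11:117815526-117826092. Mcm5 and Rrm2 are on the plus strand and the other 5 on the minus strand. Exons of Mcm7 share 321 bases with Ap4m1 and 64 with Cops6, both on the opposite strand, out of 4426 exonic bases, and also contain Mir25 and Mir93. Exons of Tk1 share 83 of 5198 bases with Afmid on the opposite strand. Whether the authors counted by strand is not given in the sources used here, so reads in these stretches cannot be assigned with certainty.

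Promoter stretches are printed where motif letters were matched, those of E2F or of the CCAAT-binding factor NF-Y in all but that of Mcm2. Each stretch was placed on a match, so it holds such letters by construction. Tk1 had no match, and Mcm7 is not shown because stretches that touch an annotated exon were left out. The printed stretches are 60 bases upstream of a transcription start in RefSeq sequence of GRCm38.p6, written 5′ to 3′ on the strand of the gene. The capitals mark motif matches on either strand.
Mcm2, chr6:88898818-88898877: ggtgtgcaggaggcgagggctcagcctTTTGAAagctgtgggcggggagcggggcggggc
Mcm3, chr1:20820313-20820372: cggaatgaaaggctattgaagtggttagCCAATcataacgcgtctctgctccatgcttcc
Mcm5, chr8:75109332-75109391: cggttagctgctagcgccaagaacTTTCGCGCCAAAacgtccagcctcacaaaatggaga
Mcm6, chr1:128359780-128359839: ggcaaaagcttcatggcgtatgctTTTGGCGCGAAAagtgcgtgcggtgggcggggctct
Mcm6, chr1:128359719-128359778: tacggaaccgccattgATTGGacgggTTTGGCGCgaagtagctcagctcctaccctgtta
Rrm2, chr12:24708176-24708235: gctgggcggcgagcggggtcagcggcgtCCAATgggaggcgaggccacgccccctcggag
In Mcm2 the capitals mark TTTGAA, the core of a cell-cycle homology region (CHR). In Mcm3 and Rrm2 they mark CCAAT. In Mcm5 and in the stretch of Mcm6 that ends at 128359839 they mark an overlapping pair of E2F matches, TTTCGCGC and TTTGGCGC, 1 on each strand. In the other stretch of Mcm6 they mark CCAAT in its reverse form and TTTGGCGC.

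In windows from 250 bases before to 50 after each start, both strands were searched for TTTCCCGC, TTTCGCGC, TTTGCCGC and TTTGGCGC (E2F), TTTGAA (CHR) and CCAAT. An E2F match was present in 4 of the 7 members, Mcm3, Mcm5, Mcm6 and Mcm7. It was present in 2.6% of all 27025 genes with a window and in 5.23% of the 554 such genes of the stage table. CCAAT was present in 6 members, all but Tk1, and in 41.1% of all genes and 44.6% of those of the stage table. TTTGAA was present in Mcm2 alone among the members, and in 20.2% and 19.5% of these genes. Lists described further below were searched too. Of 13 other replication genes with a window, 4 had an E2F match, 6 had CCAAT and 3 had TTTGAA. Of 21 mitosis genes with a window the numbers were 1, 18 and 20. The share with CCAAT was 85.7% both in these mitosis genes and in the members. Tk1 had none of these letters in its window. Mcm7 had 2 windows and the other members 1 each. These are matches of letters and were not tested for binding.

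The values are reads divided by a size factor per library, called normalized reads here, and compare a gene between libraries rather than one gene with another. Reads over the 716 genes ranged from 152704 to 880410 (median 386600) in anti-HA libraries, from 6775 to 162205 (median 37974) in IgG and from 49902 to 159540 (median 92244) in inputs. The 7 members together held 134 to 1441 reads (median 411) in an anti-HA library, 11 to 378 (median 101) in an IgG library and 65 to 206 (median 120) in an input, so that single genes in IgG and input rest on few reads. The authors' deposited table holds 15 comparisons between anti-HA groups, and each of its 716 genes is below an adjusted p of 0.05 with a change of 2-fold or more in 1 or more of them. Counts of calls between anti-HA stages are therefore counts within a chosen list, to be read beside the share of the whole table. The labelled cell type was checked with homeostatic microglia genes: 9 of 16 listed markers were in the table, Cx3cr1, Tmem119 and Sall1 not among them, and all 9 were higher in anti-HA than in input libraries of non-immunized brain. So were all 8 measured genes of a border macrophage list of 10, which includes Mrc1 and Lyve1, beside 82.1% of the table. The endothelial list of 6 had Pecam1 in the table, which was higher by a log2 difference of 4.62 ± 0.27, and the dendritic cell list of 8 had Cd209a, higher by 4.52 ± 0.45, and Siglech, which is also on the microglia list.

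At initiation all 7 genes were higher in the anti-HA libraries than in non-immunized mice, with no overlap between the groups for any of them, beside 59.1% of the table. The fitted rise was 2.68-fold for Mcm3, the lowest, and 10.9-fold for Rrm2, the highest. The test is limma on log2(normalized reads + 1), a scale that understates the change of low genes, with Benjamini-Hochberg adjustment over the 716 genes, with calls made below an adjusted p of 0.05. All 7 members were called, beside 74.4% of the table. The median log2 change was 1.87 over the members and 1.24 over all 716 genes, and each member lay above the latter. In the authors' deposited values all 7 pass the 2-fold and adjusted p limits in this same comparison. Mcm2 and Mcm3 pass in no other of the 15. The rise at initiation is thus not independent of how the table was chosen. In bulk libraries fewer cells of a type and less RNA per cell cannot be told apart, nor can their reverse. The labels do not say that replicates are separate animals, so p-values measure the spread between these libraries.

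Among the helicase subunits, Mcm2 ran from 21.3 to 30.5 (median 23.8) normalized reads in the 6 non-immunized libraries and was 74.0, 87.1, 131 and 107 in the 4 of initiation. Its change was 1.95 ± 0.53 (SE, adjusted p = 0.00122) on the log2 scale. Mcm2 thus stayed within a narrow range in healthy brain, and its lowest initiation library lay above the highest non-immunized one. Mcm3 was 118, 87.1, 106, 106, 77.6 and 113 in non-immunized and 235, 184, 389.7 and 316 in initiation libraries, a log2 change of 1.42 ± 0.29 (SE, adjusted p = 8.05e-05). Mcm5 ran from 31.5 to 65.4 (median 41.9) and reached 123, 91.1, 171 and 333, a log2 change of 1.87 ± 0.47 (SE, adjusted p = 0.000662). In Mcm3 the lowest initiation value was that of library 2, and in Mcm5 library 4 stood highest.

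Mcm6 ran from 25.5 to 76.3 (median 41.6) in non-immunized libraries and was 107, 107, 171 and 286 at initiation, a log2 change of 1.87 ± 0.40 (SE, adjusted p = 0.000136). Mcm7 ran from 55.8 to 103 (median 72.2) and was 154, 107, 284 and 365, a log2 change of 1.44 ± 0.35 (SE, adjusted p = 0.000438). For both, initiation libraries 3 and 4 were higher than 1 and 2, and all 4 lay above the non-immunized range.

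Of the nucleotide-supply genes, Rrm2 was near the detection limit in non-immunized brain, with 2.18, 3.87, 1.24, 5.87, 2.43 and 3.42 normalized reads. It was 59.4, 32.4, 20.3 and 75.2 at initiation, a log2 change of 3.44 ± 0.88 (SE, adjusted p = 0.000762). Its lowest initiation library was above every non-immunized one by a wide margin, with group means of 3.17 ± 1.62 (SD, n = 6) and 46.8 ± 25.0 (SD, n = 4). Tk1 was 42.5, 30.0, 41.1, 32.3, 13.3 and 5.13 in non-immunized libraries, where libraries 5 and 6 were lowest, and 290.2, 149.8, 212 and 294 at initiation, a log2 change of 3.29 ± 0.74 (SE, adjusted p = 0.000207). Rrm2 and Tk1 thus had the 2 largest changes of the 7. All 7 calls held when any 1 library was left out. Quantile normalization over the 716 genes, which shifts the table's median log2 change by -1.17 at this stage, left 3 members called, and edgeR with TMM factors over the table left 4, with no member reversed. Both scalings set the centre of this table of chosen genes to no change.

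**Figure D1:**
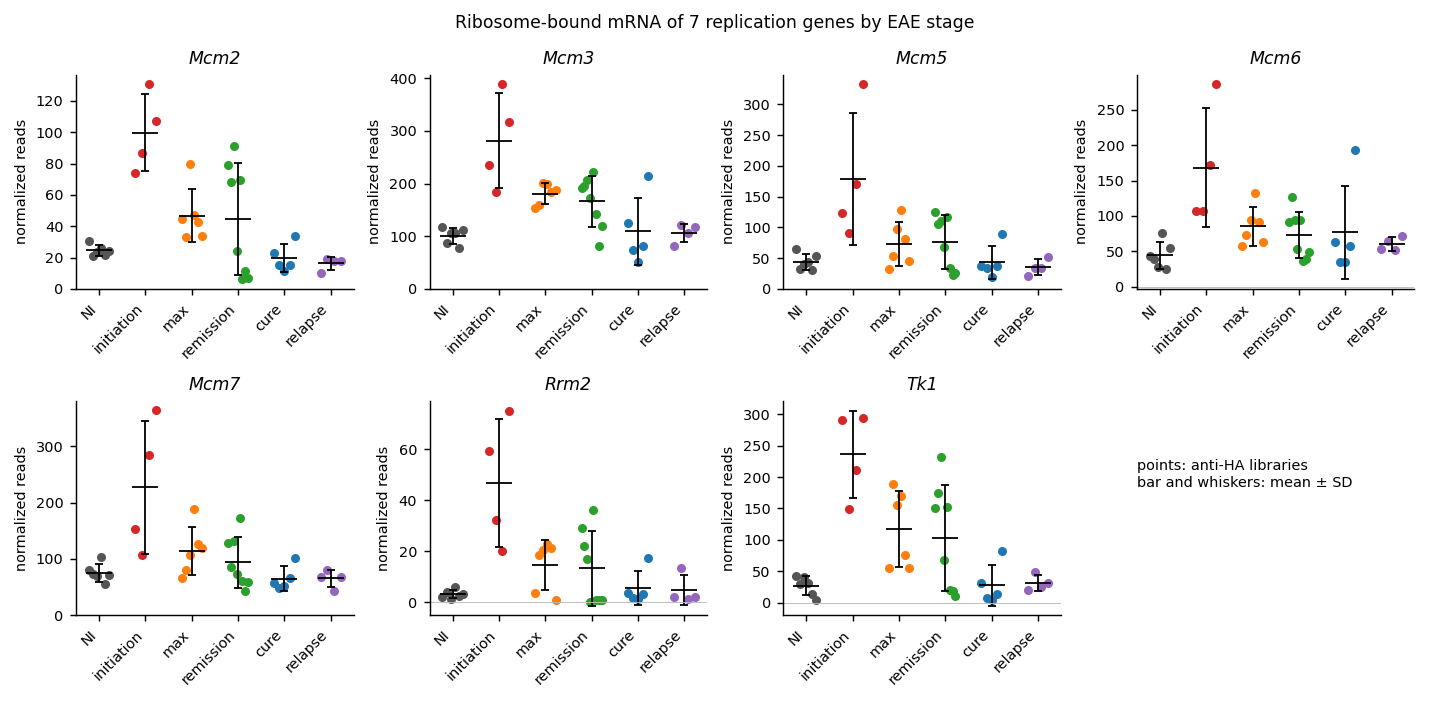
Each panel plots 1 gene in normalized reads (vertical axis, linear, from 0) for the 33 anti-HA libraries by stage; points are libraries and the bar and whiskers are mean ± SD. For all 7 genes the 4 initiation libraries lie above the 6 non-immunized ones, as with Mcm2 at 74.0 to 131 against 21.3 to 30.5.

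At max, the members lay between non-immunized and initiation levels. Mcm3, Mcm6 and Tk1 were called higher than in non-immunized mice, 3 of 7 beside 71.5% of the table, but Mcm3 and Mcm6 turned lower under quantile normalization and under TMM factors, and neither scaling left any of the 3 called. Tk1 ran from 55.7 to 188 (median 116) in the 6 libraries of max, all above the 6 non-immunized ones, with a log2 change of 2.15 ± 0.66 (SE, adjusted p = 0.00362). Under quantile normalization that change was 0.95 (adjusted p = 0.127) and with TMM factors 0.98 (adjusted p = 0.113). Mcm3 ran from 153 to 201 (median 186), also without overlap, a log2 change of 0.84 ± 0.26 (SE, adjusted p = 0.00416). Mcm6 ran from 57.4 to 133 (median 81.7) with overlap, a log2 change of 0.97 ± 0.36 (SE, adjusted p = 0.0140). Mcm2 at max ran from 33.1 to 79.7 (median 43.6), above the non-immunized range as well, but its log2 difference of 0.85 ± 0.47 was not called (adjusted p = 0.0884). Among all genes 53.6% had every library of max above the non-immunized ones. The median of the members was 0.85 against 1.19 for all genes, and 2 of the 7 lay above the latter. Without max library 1, whose member sum of 412 normalized reads was the lowest at max, 5 members were called.

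In remission 2 members were called higher than in non-immunized mice, beside 62.2% of the table. Mcm3 differed by 0.66 ± 0.25 (SE, adjusted p = 0.0167) and Tk1 by 1.48 ± 0.62 (SE, adjusted p = 0.0319), on the log2 scale. Neither was called under quantile normalization or with TMM factors, and Mcm3 turned lower with TMM factors (log2 -0.046). Tk1 was also not called without non-immunized library 5 or 6 or remission library 1, 2, 3 or 5 (adjusted p from 0.0641 to 0.11). The 8 remission libraries were spread widely. Mcm2 was 79.4, 68.1, 91.6, 24.1, 69.6, 6.44, 11.5 and 7.25 in libraries 1 to 8, so that libraries 6 to 8 were below the non-immunized range and libraries 1, 2, 3 and 5 far above it. Rrm2 was 29.0, 22.2, 17.1, 0, 36.4, 0.805, 0.959 and 1.04 and Tk1 151, 174, 231, 68.6, 153, 20.1, 18.2 and 11.4 in the same order. In all of them libraries 6 to 8 were low, and library 4 lay below libraries 1, 2, 3 and 5. The sum over the 7 members was 796, 778, 883, 461, 866, 301, 216 and 273 normalized reads.

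Other genes of the cell cycle were spread over the same remission libraries. A list of 25 measured mitosis genes summed to 1402, 1589, 1739.6, 706, 2129.6, 343, 235 and 329 normalized reads in libraries 1 to 8. The homeostatic microglia list summed to 74292, 85237, 76504, 135342, 74108, 90302, 60960.4 and 66387, and was highest in library 4. Most of this sum is Cst3, with a remission mean of 65360 beside 82892 for the list. By mean log2(normalized reads + 1) over the 9 genes the libraries were 9.57, 9.57, 9.02, 9.87, 9.25, 9.27, 9.43 and 9.60. On that scale libraries 7 and 8 were not the lowest. The border macrophage list summed to 1334, 1865, 1111, 1755, 1129.8, 869, 967 and 846. Reads over the table were 303106, 373366, 397151, 375235, 584913, 728024, 714024 and 880410, so the libraries with the lowest member sums were also the most deeply read. The part of these in the spread was not tested. Libraries 7 and 8 are also the pair that earlier work on these data set apart, together with cure and relapse, in a split of the inputs, and without them 4 members were called higher in remission than in non-immunized mice.

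In cure and relapse no member was called against non-immunized mice by limma, beside 24.4% of the table in cure and 30.7% in relapse. At an unadjusted p below 0.05 the count was also 0 at both stages, as it was among adjusted calls of edgeR and DESeq2 with the authors' size factors and of edgeR with TMM factors. In relapse, however, a fit with array weights called 1 member higher and quantile normalization called 1 lower. Log2 differences ran from -0.40 to 0.55 in cure, with adjusted p from 0.253 to 0.901, and from -0.59 to 0.51 in relapse, with adjusted p from 0.313 to 0.948. Tk1 was 31.6, 7.16, 4.40, 14.4 and 82.7 in the 5 cure libraries, Rrm2 3.68, 1.59, 1.35, 3.39 and 17.3 and Mcm6 63.2, 35.0, 34.9, 57.7 and 193. Cure library 5 was the highest of its group in each of these, and its member sum of 731 normalized reads stood beside 174 to 340 in the other 4. Mcm2 was 10.3, 19.4, 17.9 and 17.8 in relapse, where all 4 libraries lay below the 6 non-immunized ones, as for 8.8% of the table, yet the log2 difference of -0.59 ± 0.53 was not called (adjusted p = 0.375).

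By mean level every member was highest at initiation, and neighbouring stages were mostly not told apart. From initiation to max no member was called lower by limma, beside 2.37% of the table. There the log2 differences ran from -1.90 to -0.59, all negative, 5 of 7 had an unadjusted p below 0.05, edgeR called 0 and DESeq2 2, and limma called 2 without initiation library 2. Under quantile normalization 4 members were called lower, and with TMM factors 5. In the authors' deposited values, turned to max minus initiation, Mcm5 changed by -1.29 (adjusted p = 0.0195) and Mcm7 by -0.98 (adjusted p = 0.0115). The other members had an adjusted p from 0.119 to 0.566 there. From max to remission none was called (edgeR 0, DESeq2 0, 0 at an unadjusted p below 0.05), beside 16.6% of the table. From remission to cure Mcm3 fell by 0.72 ± 0.26 (adjusted p = 0.0339) and Tk1 by 1.87 ± 0.65 (adjusted p = 0.0293) on the log2 scale, 2 of 7 beside 33.7% of the table. Under quantile normalization neither was called (log2 -0.15 for Mcm3, adjusted p = 0.613, and -1.29 for Tk1, adjusted p = 0.168), nor with TMM factors (adjusted p = 0.720 and 0.165). Neither was called without remission library 1, 2, 3 or 5 or cure library 2, 3 or 4. In the authors' deposited values, turned to cure minus remission, Mcm3 changed by -0.21 (adjusted p = 0.825) and Tk1 by -0.37 (adjusted p = 0.881). From remission to relapse none was called (edgeR 0, DESeq2 0, 1 at an unadjusted p below 0.05), beside 0% of the table.

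Relapse was also set against the first max. Mcm2, Mcm3 and Tk1 were called lower in relapse, 3 of 7 beside 49.2% of the table, while quantile normalization and TMM factors each left 0 called and Mcm3 differed by 0.018 in the other direction with TMM factors. Mcm2 was 10.3 to 19.4 in relapse against 33.1 to 79.7 at max, with no overlap, and a log2 difference of -1.44 ± 0.53 (SE, adjusted p = 0.0235). Mcm3 was 82.4 to 121 against 153 to 201, again with no overlap, a log2 difference of -0.76 ± 0.29 (SE, adjusted p = 0.0298). Tk1 was 20.6 to 49.4 against 55.7 to 188, also with no overlap, a log2 difference of -1.75 ± 0.74 (SE, adjusted p = 0.0457). Among all genes 40.8% had all relapse libraries below those of max. Under quantile normalization the adjusted p was 0.0844 for Mcm2 and 0.143 for Tk1, and with TMM factors 0.206 and 0.160. These calls rest on single libraries: limma called 0 members without max library 3 or relapse library 1, 1 without max library 4 or relapse library 3, and 5 were made without max library 1. In the authors' deposited values, turned to relapse minus max, Mcm2 differed by -0.63, Mcm3 by -0.29 and Tk1 by -0.28. Their adjusted p there was 0.640, 0.752 and 0.913, so the authors' values do not hold these 3 calls.

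**Figure D2:**
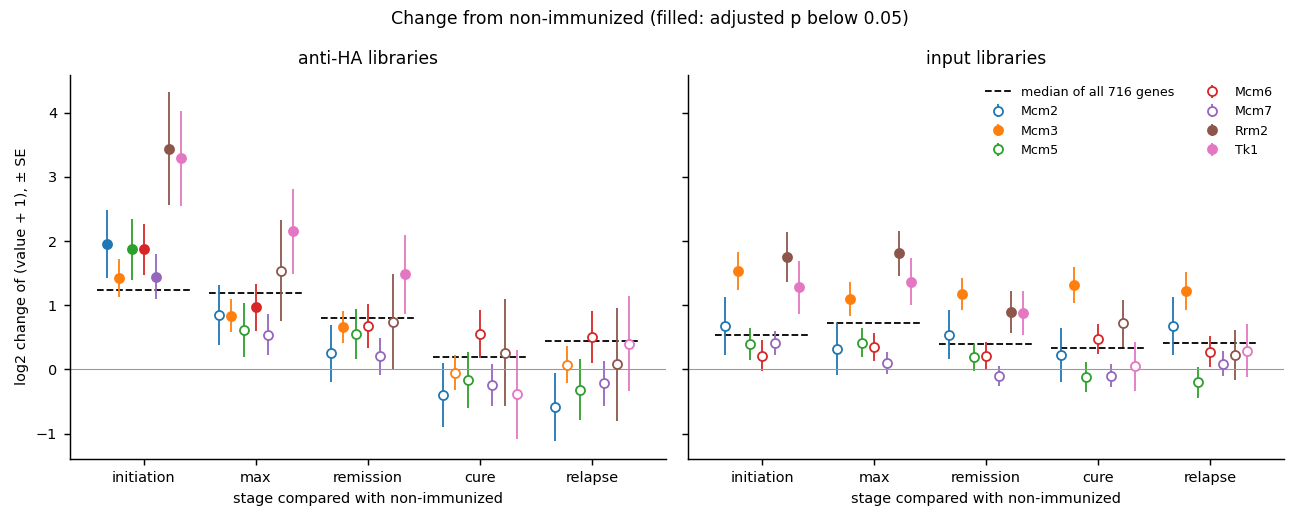
The vertical axis is the log2 change of (normalized reads + 1) from non-immunized mice, ± SE, for the 7 genes at 5 stages in anti-HA libraries (left) and inputs (right); filled points have an adjusted p below 0.05 and dashed lines are medians of all 716 genes. In anti-HA libraries all 7 genes are filled at initiation and none in cure or relapse, and at max the filled points of Mcm3 and Mcm6 reverse under quantile normalization and TMM factors; in inputs Mcm3 is filled at every stage and reverses at max under quantile normalization.

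The anti-HA fraction was then compared with the homogenate. In non-immunized brain all 7 genes were called higher in anti-HA libraries than in inputs, beside 82.1% of the table, without overlap for any member, as for 67.7% of the table, but 5 of them turned lower under quantile normalization (all but Mcm3 and Tk1) and 3 with TMM factors (Mcm5, Mcm6 and Mcm7). Mcm3 had the largest difference: it was 77.6 to 118 in anti-HA libraries and 3.02, 1.94, 1.87, 6.68, 3.23 and 1.89 in inputs, a log2 difference of 4.72 ± 0.32 (SE, adjusted p = 2.50e-24). Tk1 was 0.808 to 2.86 in inputs, a log2 difference of 3.24 ± 0.59 (SE, adjusted p = 7.19e-07). Mcm2 differed by 2.11 ± 0.47, Mcm5 by 1.77 ± 0.39, Mcm6 by 1.64 ± 0.30 and Mcm7 by 1.06 ± 0.23. Rrm2 differed by 1.33 ± 0.61 (SE, adjusted p = 0.0402), a call lost without input library 1 or 5 or anti-HA library 2, 4 or 6. The median over all 716 genes was 2.00, above 4 of the 7 members and below Mcm2, Mcm3 and Tk1.

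At initiation all 7 were again called higher in anti-HA than in input, beside 94.1% of the table. Tk1 differed by 5.25 ± 0.72 (SE, adjusted p = 4.13e-10), with 3.93, 5.01, 11.4 and 2.55 in the inputs. Mcm3 differed by 4.61 ± 0.39 (SE, adjusted p = 1.97e-18). Mcm7 had the smallest difference, 2.09 ± 0.28 (SE, adjusted p = 1.08e-10), and it turned lower under quantile normalization and with TMM factors. Later, 6 of 7 were called at max beside 93.4%, 7 in remission beside 95.7%, 6 in cure beside 83.4% and 5 in relapse beside 85.6% of the table. These shares are near those of all genes of a table chosen on anti-HA libraries. Rrm2 was not called at max or at the cure and relapse stages, nor Mcm2 in relapse. The remission call of Rrm2 was lost without input library 7 or anti-HA library 1, 2, 3 or 5 (adjusted p from 0.0709 to 0.137). Both scalings over the table, quantile and TMM, turned Mcm5 and Mcm7 lower at each of these 4 stages and Mcm6 in remission, cure and relapse, while Mcm3 and Tk1 were reversed at none. Over the 6 stages quantile normalization left 9 of the 38 calls against input and TMM factors 13.

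Against the IgG background, anti-HA libraries were called higher for 6 of 7 members in non-immunized mice beside 83% of the table, 7 at initiation beside 95.4%, 7 at max beside 95.3%, 7 in remission beside 96.2%, 4 in cure beside 87.4% and 6 in relapse beside 88.1%, but between 1 (at initiation, Mcm7) and 5 of these calls per stage turned lower under quantile normalization and with TMM factors, Mcm3 and Tk1 never among them. The relapse call of Mcm7 was lost without IgG library 3 or 4 or anti-HA library 1, 2 or 4, and the cure call of Mcm2 without anti-HA library 5. In non-immunized brain Rrm2 was 0.914, 1.26, 0, 3.24, 1.39 and 6.51 in the IgG libraries and overlapped its anti-HA values, a log2 difference of 0.57 ± 0.61 (SE, adjusted p = 0.379), so it was not detectable above background there. Mcm7 was clearly present in IgG as well, 29.3 to 48.8 against 55.8 to 103. At initiation every member's 4 anti-HA libraries lay above the 4 IgG and the 4 input libraries, as for 80.6% of the table.

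**Figure D3:**
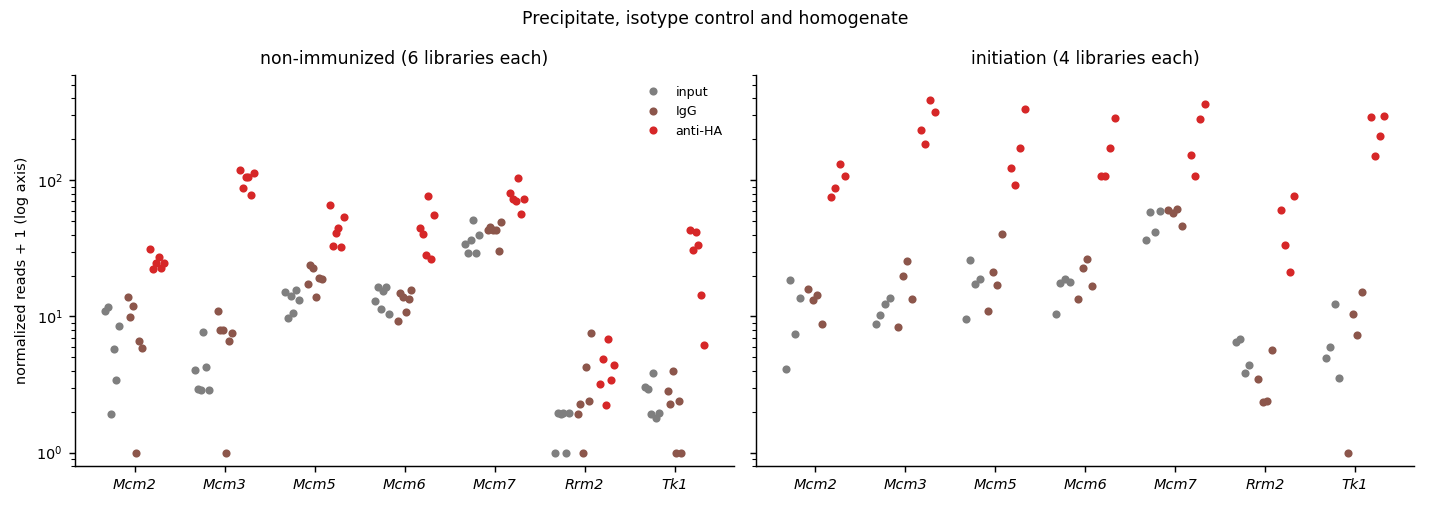
The vertical axis is normalized reads + 1 on a log scale for the 7 genes in non-immunized (left, 6 libraries per fraction) and initiation (right, 4 per fraction) brain; points are libraries. In the deposited scaling anti-HA points lie above the input points for each gene in both panels, while under quantile normalization 5 genes reverse in non-immunized brain and Mcm7 at initiation, and with TMM factors Mcm5, Mcm6 and Mcm7 reverse in non-immunized brain and Mcm7 at initiation.

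The inputs show the same genes in the whole homogenate. Against non-immunized inputs, Mcm3, Rrm2 and Tk1 were called higher at initiation (3 of 7 beside 39.2% of the table), at max (3 beside 53.4%) and in remission (3 beside 33.9%), with reversals under quantile normalization for Tk1 at all 3 stages, Mcm3 at max and Rrm2 in remission, and no member called in any input comparison under that scaling. Mcm3 alone was called in cure (beside 24.4%) and in relapse (beside 26.8%). Mcm3 was 3.02, 1.94, 1.87, 6.68, 3.23 and 1.89 in non-immunized inputs and 7.86, 9.19, 11.4 and 12.7 at initiation, without overlap as for 26.4% of the table, a log2 change of 1.54 ± 0.30 (SE, adjusted p = 8.13e-05). These rest on 2 to 7 and 10 to 16 reads per library. The log2 change of Mcm3 was 1.10 ± 0.27 at max and 1.18 ± 0.25 in remission. It was 1.31 ± 0.28 at the cure stage and 1.22 ± 0.30 at relapse.

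Rrm2 was 0 to 0.969 in non-immunized inputs, that is 0 to 1 reads per library, and 5.50, 5.85, 2.85 and 3.40 at initiation, a log2 change of 1.75 ± 0.39 (SE, adjusted p = 0.000489). At max it changed by 1.81 ± 0.35 (SE, adjusted p = 5.01e-05), with every input of max above the 6 non-immunized ones, as for 34.6% of the table. In remission it changed by 0.90 ± 0.33 (SE, adjusted p = 0.0316). Tk1 in inputs changed by 1.28 ± 0.41 (SE, adjusted p = 0.0124) at initiation, 1.37 ± 0.37 (SE, adjusted p = 0.00193) at max and 0.88 ± 0.34 (SE, adjusted p = 0.0462) in remission. The initiation call of Tk1 was lost without initiation input 3, while 5 members were called there without initiation input 1, and in cure 2 without cure input 1 or 2. In remission the count fell to 1 without non-immunized input 5 or remission input 3 or 5, and edgeR and DESeq2 called 1. The other 4 helicase subunits were not called in any input comparison, with log2 differences from -0.20 to 0.68.

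The IgG libraries, which hold carry-over of the precipitation, also changed. Mcm3 was called higher than in non-immunized IgG at all 5 stages and Tk1 at max, giving 1 of 7 at initiation beside 30.7% of the table, 2 at max beside 45.3%, 1 in remission beside 22.6%, 1 in cure beside 6.28% and 1 in relapse beside 8.52%. Mcm3 was 0 to 10.1 in non-immunized IgG and 11.5 to 29.4 at max, against 153 to 201 in the anti-HA libraries of max. The calls of Mcm3 in cure and relapse were lost in most fits without 1 library, and edgeR and DESeq2 made none there; at initiation the call was lost without IgG library 2 or 3. None of these IgG calls reversed under either scaling, while quantile normalization left 1 called and TMM factors 3.

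Whether a stage changed a gene more in tagged ribosomes than in the homogenate was tested as an interaction. At initiation 3 of 7 members rose more in anti-HA than in input, beside 31.1% of the table: Mcm5 by 1.47 ± 0.62 (SE, adjusted p = 0.0413), Mcm6 by 1.65 ± 0.47 (SE, adjusted p = 0.00341) and Mcm7 by 1.03 ± 0.36 (SE, adjusted p = 0.0146) on the log2 scale. Mcm6 was 9.44 to 15.5 in non-immunized and 9.43, 16.7, 17.8 and 17.0 in initiation inputs, beside the anti-HA rise given above. Without anti-HA initiation library 4, in which Mcm5, Mcm6 and Mcm7 were highest, Mcm6 alone was called, and Mcm5 was also lost without any of 9 other libraries. With TMM factors only Mcm6 was called, and under quantile normalization Mcm7 was not (log2 0.64, adjusted p = 0.125). With a replicate block by stage and number Tk1 was called as well, at 2.01 ± 0.80 (adjusted p = 0.0269 in place of 0.0648). Mcm3 had a difference of -0.11 ± 0.50 (SE, adjusted p = 0.850), having risen in both fractions.

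At the later stages no member rose more in anti-HA by limma: 0 at max beside 24.3% of the table, 0 in remission beside 19.6%, 0 in cure beside 3.63% and 0 in relapse beside 6.15%. At an unadjusted p below 0.05, in either direction, the counts were 0, 0, 1 and 1, and edgeR and DESeq2 called 0 higher at each of these stages. In cure Mcm3 had a lower change in anti-HA than in input, -1.36 ± 0.47 (SE, adjusted p = 0.0315), 1 of 7 beside 14.8% of the table called lower. That call was lost when any of 8 libraries was left out, among them non-immunized inputs 2, 3 and 6 and cure anti-HA libraries 2, 3 and 4. In relapse edgeR and DESeq2 each called 1 member lower, and limma did so without non-immunized input 4 or relapse input 1.

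Other genes of DNA replication in the table were higher at initiation as well. Of a list of 59, 15 were in the table, and all 15 were called higher at initiation in anti-HA libraries, beside 74.4% of it. Genes absent from this table, which was chosen on anti-HA changes, could not be read. Of the 15, Pold2 turned lower under quantile normalization and Pold2 and Rpa2 with TMM factors. The list had 14 calls at max, beside 71.5%, and 11 in remission, beside 62.2%. Of these, 7 and 4 reversed under quantile normalization and 5 and 0 with TMM factors. In cure and relapse limma called 0 higher at each, beside 24.4% and 30.7% of the table. It called 1 lower at each, beside 17% and 14.9% called lower. At an unadjusted p below 0.05, 1 and 3 were higher, and edgeR and DESeq2 each called 1 higher in cure and 0 in relapse. Their median log2 change was 2.12 at initiation, 1.16 at max and 0.91 in remission, beside 1.24, 1.19 and 0.80 for all genes. Rpa2, a subunit of the single-strand binding protein, rose by 1.11 ± 0.25 (SE, adjusted p = 0.000212). Pold1, the catalytic subunit of polymerase delta, rose by 1.25 ± 0.27 (SE, adjusted p = 0.000135), and Pold2, an accessory subunit, by 0.89 ± 0.23 (SE, adjusted p = 0.000881). Lig1, which joins Okazaki fragments, rose by 1.67 ± 0.43 (SE, adjusted p = 0.000722). In the inputs 2 of the 15 were called higher at initiation, beside 39.2% of the table, and 1 at max, beside 53.4%, all reversed under quantile normalization. In the interaction at initiation all 15 rose more in anti-HA than in input, beside 31.1%, with no reversal under either scaling. As the table was chosen on anti-HA changes, this count is not independent of that choice.

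Of 18 other genes of nucleotide supply, 5 were measured, and 5 were called higher at initiation, where Shmt2 turned lower with TMM factors, 4 at max and 4 in remission, where 2 to 3 reversed under either scaling, 1 in cure and 0 in relapse. The shares of the table called higher at these stages were 74.4%, 71.5%, 62.2%, 24.4% and 30.7%. Rrm1, the large subunit that pairs with Rrm2, rose by 1.51 ± 0.30 (SE, adjusted p = 5.40e-05) at initiation. Samhd1, a dNTP triphosphohydrolase that degrades rather than makes deoxyribonucleotides and is also induced by interferon, rose by 2.36 ± 0.37 (SE, adjusted p = 2.68e-06). The mitochondrial folate enzymes Mthfd2 and Shmt2 rose by 1.56 ± 0.30 and 1.02 ± 0.28. Of 24 genes of G1/S control, 4 were measured. E2f1, an activator of replication genes, rose by 1.38 ± 0.33 (SE, adjusted p = 0.000360), and Myc by 1.31 ± 0.29 (SE, adjusted p = 0.000180), which turned lower under quantile normalization. Cdkn2a, which encodes inhibitors of the cell cycle, rose by 2.27 ± 0.47 (SE, adjusted p = 7.83e-05), and cyclin D1 (Ccnd1) fell, with a log2 change of -0.70 ± 0.30 (SE, adjusted p = 0.0298).

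Of 55 mitosis genes 25 were measured, and all 25 were called higher at initiation, beside 74.4% of the table, with no reversal under either scaling. There were 22 calls at max, beside 71.5%, and 20 in remission, beside 62.2%, of which 3 and 8 reversed under quantile normalization. In cure and relapse 1 was called higher at each, beside 24.4% and 30.7%. The median log2 change of the 25 at initiation was 3.44. Ube2c, the ubiquitin-conjugating enzyme of the anaphase-promoting complex, rose by 4.09 ± 0.80 (SE, adjusted p = 4.54e-05). Plk1, a mitotic kinase, rose by 4.22 ± 0.86 (SE, adjusted p = 7.37e-05), Cdca8 of the chromosomal passenger complex by 3.54 ± 0.68 and the kinesin Kif22 by 2.65 ± 0.42. In inputs 11 of the 25 were called higher at initiation, beside 39.2% of the table, and 13 at max, beside 53.4%, shares near those of all genes, of which 4 and 9 reversed under quantile normalization. Of 21 measured mitosis genes with a promoter window, 20 had TTTGAA in it, beside 1 of the 7 members.

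Markers of the tagged cells moved over the same stages. Homeostatic microglia genes summed to 95637 to 204905 normalized reads in non-immunized anti-HA libraries and 45545 to 77906 at initiation, and 9 of 9 were called lower, beside 16.2% of the table. Border macrophage genes summed to 1199.7 to 3584 and 1294 to 2211. At initiation 2 of 8 were called higher, beside 74.4% of the table, Cd163 and F13a1 at 0.77 ± 0.29 and 0.92 ± 0.34, both reversed under either scaling. A further 2 were called lower, beside 16.2%, among them Pf4 at -1.68 ± 0.35. Of the lists for monocytes, neutrophils, T cells, B cells, NK cells, neurons, astrocytes, oligodendrocytes, their precursors and neural progenitors, no gene was in the table. Pecam1 of the endothelial list was called lower at initiation, with a log2 change of -0.54 ± 0.24, and Cd209a of the dendritic cell list with -2.86 ± 0.53. The part of these markers in the rise of the replication genes was not tested. The mitosis list summed to 234 to 432 in non-immunized libraries and 1419 to 4903 at initiation.

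**Figure D4:**
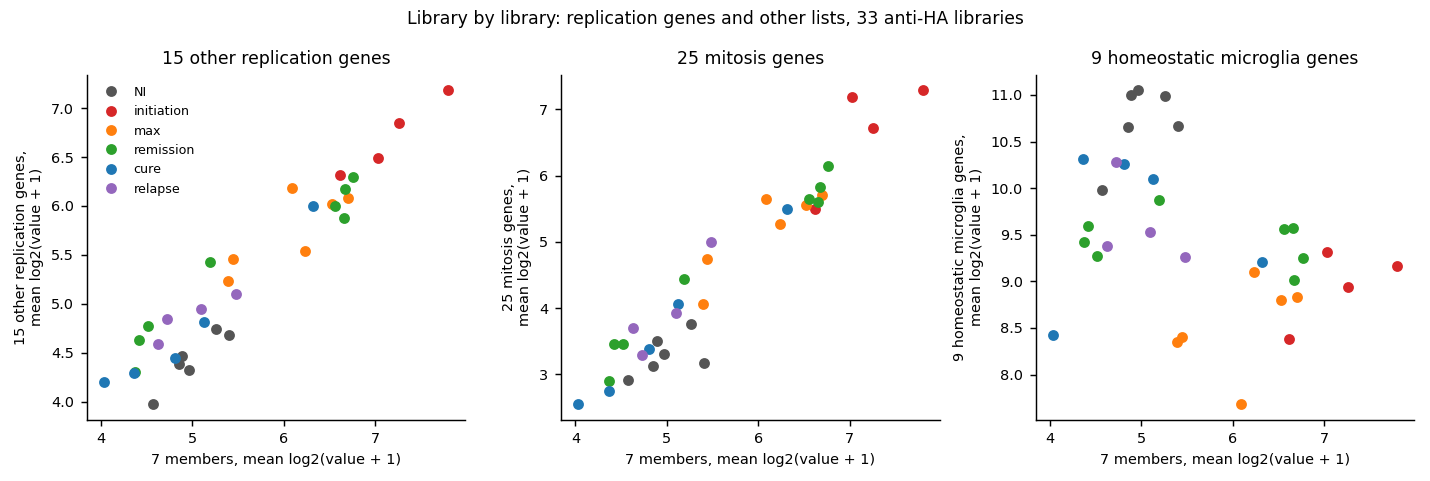
Each point is 1 of 33 anti-HA libraries, coloured by stage; the horizontal axis is the mean log2(normalized reads + 1) of the 7 genes and the vertical axes are the same mean for 15 other replication genes, 25 mitosis genes and 9 homeostatic microglia genes. Initiation libraries lie at the upper end of the horizontal axis, from 6.62 to 7.80, with remission libraries at 4.37 to 6.76.

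The members varied together over the 33 anti-HA libraries. Pearson's r of log2 values between 2 members was 0.709 to 0.893 (median 0.819, 21 pairs), and 0.517 to 0.831 (median 0.720) after each stage's mean was removed. Libraries share stage, depth and scaling, so these r are descriptions. Among the other 709 genes, those most like the mean of the members were Cks1b (r = 0.970), Gins2 (0.963), Cdca8 (0.959), Top2a (0.956), Plk1 (0.953), Gtse1 (0.953), Fam64a (0.952), Birc5 (0.947), Ube2c (0.946) and Bub1b (0.935), against a median r of 0.607 over all 709. Gins2 is a subunit of the GINS complex, which forms the active helicase together with the MCM ring and Cdc45. Within stages their r was 0.873 to 0.948. All 10, and all 7 members, are in cluster 2 of the authors' deposited table, which holds 292 genes.

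The authors' deposited table gives its own log2 changes for the same comparisons, which share their non-immunized libraries with the fits above. As deposited these are non-immunized minus stage, since all 209 genes of initiation, 62 of cure and 81 of relapse whose group means on the log2 scale differ by more than 2 have the opposite sign there. They are given here with the sign turned, so that a positive value is higher than in non-immunized mice. Turned in this way, at initiation the authors' deposited values run from 1.48 to 3.99 for the 7 members, all with an adjusted p below 0.05 in the authors' deposited table. In cure the turned values of the authors' deposited table run from 0.23 to 3.35 and in relapse from 0.24 to 3.12, all positive, with 1 and 0 members below an adjusted p of 0.05. The limma values without further terms, -0.40 to 0.55 and -0.59 to 0.51, thus differ from them at these 2 stages. At max the turned values run from 0.62 to 2.28, with 5 members below an adjusted p of 0.05, beside 3 called by limma. In remission they run from 0.40 to 2.32, with 4 members below 0.05, while limma called 2 and gave 0.20 to 1.48. There Rrm2 is 2.32 (adjusted p = 0.0172) in the authors' values and 0.74 (adjusted p = 0.349) by limma. A limma fit with a term for the split of cure, relapse and remission libraries 7 and 8 from the rest gave 0.77 to 2.55 in cure, with 0 members called (adjusted p from 0.0528 to 0.200), and 0.80 to 3.18 in relapse, with Tk1 called (adjusted p = 0.0153). The same fit called 4 members at max and 4 in remission. No label names such a batch, and in none of the 3 fractions did any of the 716 genes separate its sides without overlap. Since every cure and relapse library is on 1 side, such a batch and these stages can be told apart only through remission. The sign of the members in cure and relapse therefore depends on the fit.

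Elsewhere in the series none of the 7 members is among the 204 genes of the table on Ifngr ko/fl and ko/wt microglia or the 85 genes of the table of T cell values, both lists of chosen genes. All 7 are in the authors' deposited table on CD25pos T cells of the brain. There the log2 fold changes run from -0.73 to 0.47 in the authors' deposited table, with adjusted p from 0.399 to 0.882, while 18 of 8627 genes (0.209%) are below 0.05. The headers of that table name the genotypes in opposite orders for the fold change and the p, so its direction is not read here.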

How the data were processed

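RNA was sequenced from anti-HA precipitates, IgG precipitates and inputs of brain homogenate, 99 libraries of the stage table, grouped by their titles. The treatment field names EAE for non-immunized libraries too, so the title was used. The deposited values have the unit signal: counts of reads per gene divided by a size factor per library. No label or header states this unit; it was inferred, as 100% of values came out whole after division by 1 step per library (tolerance 0.01 step plus a relative 1e-07). The submitters' processing notes name the build mm10. The sources used here do not give the aligner, the counter, the annotation or the use of strand. The log2 fold changes and adjusted p-values in the authors' deposited tables come from a program that is not stated. The clusters column, another kind of value, holds the authors' group number of a gene, per the file headers.

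From the deposited values, limma 3.58.1 (R 4.3.3) was run two-sided on log2(value + 1), with Benjamini-Hochberg adjustment over 716 genes and calls at an adjusted p below 0.05. Stages within a fraction were fitted on the 33 libraries of that fraction and comparisons between fractions on all 99, in each case with 1 shared estimate of the spread and no covariate. No 2 libraries of a group were alike within sampling noise (lowest chi-square per degree of freedom 1.66). Errors are SE for log2 changes and SD for means. The fit was tested on simulated data. Alternatives were pseudocounts of 0.1 and 10, quantile normalization, edgeR 4.0.16 with the authors' size factors or TMM, DESeq2 1.42.0, genes with a mean of at least 10, array weights, replicate blocks, leaving out each library, and the split described in the report.

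The 7 members and the gene lists were chosen with earlier results of these data known. Named genes are the members, up to 4 genes per list with the highest anti-HA mean, and the 10 genes most correlated with the members' mean. A comparison of genes per length was not made. Promoter windows are RefSeq sequence of GRCm38.p6, and 7 of 7 members matched by symbol. Ifngr and T cell libraries were not fitted, as their tables of values hold no member. In the authors' table of T cell statistics 7 are listed. Same-numbered anti-HA and input libraries deviated together (r over 0.1) in all 4 pairs of initiation, 6 of max and 8 of remission, so the numbers pair them there by the rule used, but in 4 of 6 pairs of non-immunized mice, 4 of 5 of cure and 3 of 4 of relapse. Anti-HA and IgG libraries did so in all pairs of initiation and relapse alone.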

Additional observations from a re-analysis of the deposited data

Results flagged for a closer look

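In groups of 4 to 8 libraries, each member's highest or lowest anti-HA library was compared with the rest by Dixon's gap. Over 42 groups of a gene and a stage 5 values stood apart on the scale of normalized reads, where chance alone gives about 1 in 20 for independent groups. The members varied together over the same libraries, so these groups are not independent. Mcm2 was 79.7 normalized reads in max library 3, beside 33.1 to 47.3 in the other 5. Cure library 5 stood apart for Mcm5 at 88.8, for Mcm6 at 193 and for Rrm2 at 17.3, and it also had the highest mitosis sum of its group, 1361 beside 176 to 521. Rrm2 was 13.6 in relapse library 2.

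The change from non-immunized mice differed between anti-HA and input for 4 results, each by a limma interaction term. At initiation it was larger in anti-HA by 1.47 for Mcm5, 1.65 for Mcm6 and 1.03 for Mcm7 on the log2 scale. The table was chosen on anti-HA changes, so these terms are not independent of that choice. In cure it was lower for Mcm3, by -1.36.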

How the results depend on the processing

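Across alternatives, counts are of calls summed over the comparisons of a family. Calls higher in anti-HA stages against non-immunized mice numbered 12, with 3 under quantile normalization, 4 with TMM factors, 21 with array weights and 11 to 14 without 1 library. Calls lower between stages numbered 5, with 8 by DESeq2, 19 with array weights and 2 to 7 without 1 library. Quantile normalization gave 4 and TMM factors 5, all from initiation to max, and left 0 of the original 5 called. No call was higher between stages (0 to 0). Anti-HA against input gave 38 (37 to 39), with 9 under quantile normalization and 13 with TMM factors, and against IgG 37 (36 to 38), with 7 and 10. Inputs gave 11 (9 to 13), with 0 under quantile normalization, 6 with TMM factors and 0 among genes with a mean of at least 10, a filter that drops low members. IgG gave 6 (4 to 7), with 1 and 3. Interactions gave 3 (1 to 3), with 8 at a pseudocount of 10, 1 with TMM factors and 5 with array weights. The cause of these shifts was not tested, beyond the centring that both scalings impose.

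Under quantile normalization the log2 value reversed to -0.063 for Mcm3 and -0.10 for Mcm6 at max, to -0.41 for Mcm2, -0.54 for Mcm5, -0.67 for Mcm6, -1.16 for Mcm7 and -0.70 for Rrm2 in non-immunized anti-HA against input, and to -0.52 for Mcm7 at initiation. In inputs it reversed to -0.031, -0.24 and -0.28 for Tk1 at initiation, max and remission, -0.42 for Mcm3 at max and -0.26 for Rrm2 in remission. With TMM factors it reversed to -0.24 for Mcm3 and -0.10 for Mcm6 at max, -0.046 for Mcm3 in remission and 0.018 for Mcm3 in relapse against max, and in anti-HA against input to -0.18 for Mcm5, -0.32 for Mcm6 and -0.98 for Mcm7 in non-immunized brain and -0.46 for Mcm7 at initiation. The initiation interaction of Mcm3 was 0.71 at a pseudocount of 10 and 0.12 under quantile normalization, and -0.31 to 0.069 without 1 library.

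Same-numbered anti-HA libraries of different stages deviated together (r over 0.1) in 26 of 69 pairs, so numbers do not pair libraries across stages. With a replicate block by stage and number (correlation 0.212) the counts were 38 against input, 39 against IgG and 4 for interactions. It added calls of Mcm5 and Rrm2 in cure against IgG (adjusted p = 0.0391 and 0.0497), of Tk1 in the initiation interaction and of Mcm3, lower, in that of relapse (adjusted p = 0.0495), and changed no other call. With the number as a fixed block they were 16 for anti-HA stages against non-immunized mice, 11 lower between stages, 10 in inputs and 5 in IgG.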
